A study of Homo sapiens with 8 samples.

Results

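Aminoacyl-tRNA synthetases join each amino acid to its transfer RNA, the step that fixes which amino acid a codon is read as. The nuclear genome encodes a cytosolic set and a mitochondrial set, and several cytosolic enzymes are held together in the multisynthetase complex by the scaffold proteins AIMP1 and AIMP2. NAT10, the enzyme depleted here, writes N4-acetylcytidine on ribosomal RNA and, with its adaptor THUMPD1, on serine and leucine tRNAs, the substrates of SARS1 and LARS1. The genes described are 37 listed by symbol, 19 cytosolic synthetases, 16 mitochondrial synthetases (names ending in 2) and the 2 AIMP scaffolds, found among 86369 rows of the count table by their Ensembl identifiers. KARS1 and GARS1 stand with the cytosolic genes, although each also supplies its mitochondrial enzyme, and the list holds no aspartyl enzyme.

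HepG2, an established liver cancer cell line, was transfected with a siRNA against NAT10 (siNAT10) or a negative control siRNA (siControl), and polyadenylated RNA was counted at its 3' ends 2 days later. Each group had 4 libraries, replicates 1 and 2 from batch 1 and replicates 3 and 4 from batch 2. The labels do not say whether replicates were separate cultures, so p-values measure the spread between these libraries, which may be technical. Libraries held 9731718 to 27977110 counts, and the 2 shallowest were siNAT10 replicates 4 and 3, both of batch 2. Of 10 hepatocyte markers, 9 were tested and APOB had 7 counts over the 8 libraries. Of the 9, 7 were fitted lower in siNAT10 and 2 higher (FGB at 0.37 and HNF4A at 0.090 on the log2 scale). The median log2 difference was -0.29. At an unadjusted p under 0.05 in edgeR there were 6 (66.7%), against 15.7% of all tested genes. TF, the 1 called, was lower (log2 difference -0.49, edgeR adjusted p 0.023), where 2.28% of all tested genes were called in either direction. Among 10 leukocyte, fibroblast and endothelial markers no mean over the 8 libraries passed 2.13 CPM (counts scaled by library size), and their summed CPM was 3.85 to 5.38 in siControl and 2.04 to 4.90 in siNAT10. PTPRC, COL1A2 and COL3A1 had 0 counts. The part of these shifts in the results was not tested. NAT10 itself stood at 44.7, 39.2, 77.8 and 48.9 CPM in siControl replicates 1 to 4 and at 13.1, 12.2, 20.1 and 22.3 CPM in siNAT10. Each siNAT10 library was below each siControl library (log2 fold change -1.66, standard error or SE 0.14, edgeR adjusted p 2.0e-05).

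Of the 37 genes, 33 had enough counts to be tested and 4 did not. The isoleucyl enzyme IARS1 had 1 count over all 8 libraries, the valyl enzyme VARS1 had 4, and the mitochondrial seryl and valyl enzymes SARS2 and VARS2 had 0. A count of 3 corresponds to between 0.104 and 0.293 CPM in these libraries, whereas the least abundant tested member averaged 5.77 CPM. Cells need isoleucyl and valyl enzymes to make protein, so these values are not read as an absence of the transcripts. Their genomic neighbours were low too. Within 250 kb of VARS1, 52 of 53 other protein-coding genes had at most 10 counts over the 8 libraries, as did 20 of 21 near VARS2, 14 of 18 near SARS2 and 6 of 7 near IARS1, against 38.5% of the 20038 protein-coding genes in the table. Near tested members this share ran from 0 to 100%. The 100% was TARS1, with 1 neighbour, and the next highest share was 75% near CARS1 (6 of 8). Neighbours picked after their values were seen include the tubulin gene TUBB with 0 counts near VARS2, the chaperone gene HSPA1A with 0 near VARS1, the splicing factor gene HNRNPL with 1 near SARS2, and NOL8 with 0 near IARS1. Farther from IARS1 on its other side, SPTLC1 had 17064. Neighbours of SARS2 above 10 counts included MRPS12 with 39, FBXO27 with 124 and PAK4 with 2640. BAG6 had 17 near VARS1, and IER3 had 19 near VARS2. GENCODE places other transcripts (ENSG00000269547 and ENSG00000288473) over the 3' ends of SARS2 and VARS2 on the same strand, and both had 0 counts. Why these stretches lack counts was not tested.

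**Figure D1:**
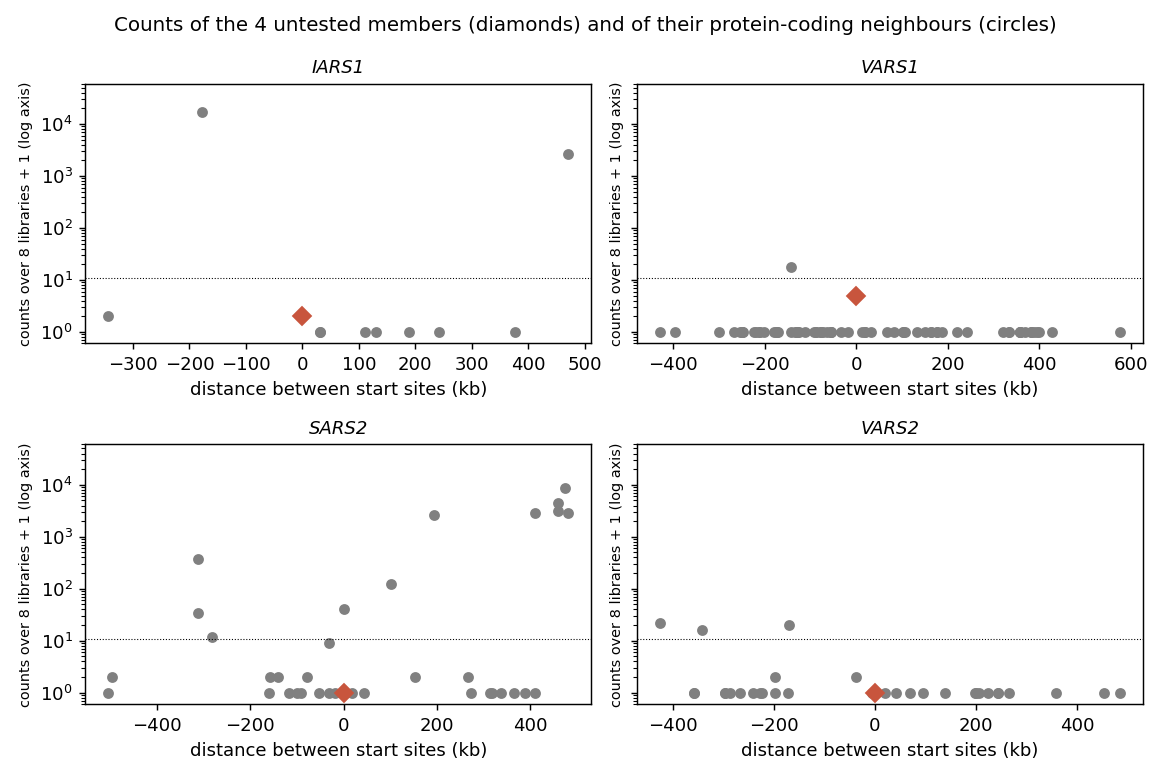
Counts summed over 8 libraries plus 1 (log axis) of protein-coding genes against the distance of their start sites from IARS1, VARS1, SARS2 or VARS2 (kb). The diamond is the member, with 1, 4, 0 and 0 counts, grey circles are neighbours, and the dotted line marks 10 counts; most circles lie below it.

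The main comparison asked whether synthetase transcripts changed when NAT10 was depleted. No member was called: 0 of 33 tested members passed an adjusted p of 0.05 in edgeR's quasi-likelihood test with batch as a term, where 2.28% of 13840 tested genes did (0.816% higher and 1.46% lower), and DESeq2 also called 0. At an unadjusted p under 0.05 there were 2 members, the cytosolic QARS1 and the mitochondrial TARS2, against 15.7% of all tested genes. Fitted log2 fold changes ran from -0.37 (TARS2) to 0.24 (NARS2), with 16 above 0 and 17 below. Their median size was 0.11, and over all tested genes it was 0.16. The per-gene 95% intervals, not adjusted for the number of genes, lay within a 2-fold change in either direction for each of the 33 tested members and within a 1.5-fold change for 29. The lowest bound was -0.67 and the highest 0.59 on the log2 scale. In bulk RNA, a lower value from fewer cells of a kind and from less RNA per cell cannot be told apart. Tested members had 38 to 6475 counts in a library.

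**Figure D2:**
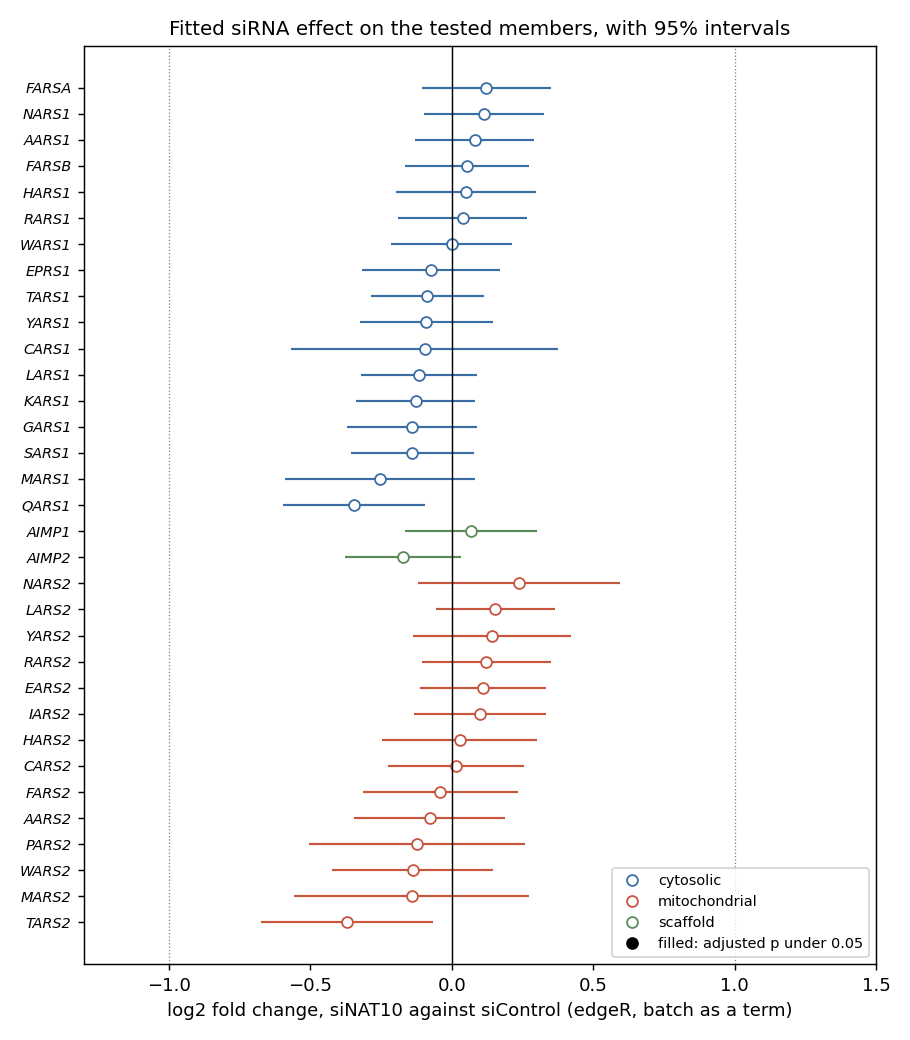
Fitted log2 fold change of each of 33 tested members, siNAT10 against siControl, with its 95% interval (bars) from edgeR with batch as a term. Every point is open because no member passed an adjusted p of 0.05, and every interval lies inside the dotted lines at -1 and 1.

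QARS1 (ENSG00000172053; GRCh38 chromosome 3, 49095932 to 49105130, minus strand) makes glutaminyl-tRNA in the cytosol and is a subunit of the multisynthetase complex. Its siControl libraries stood at 162.0, 143.3, 187.5 and 165.7 CPM and its siNAT10 libraries at 138.1, 130.4, 144.3 and 104.1 CPM. The siNAT10 libraries were below both siControl libraries of their own batch, and across batches the groups overlapped by 1 siNAT10 library, replicate 3, just above siControl replicate 2. The means were 164.6 ± 18.1 and 129.2 ± 17.7 CPM (SD, n = 4 in each group; log2 fold change -0.35, SE 0.12, edgeR adjusted p 0.15). Fitted in batch 1 alone it was -0.18 and in batch 2 alone -0.51, and without siNAT10 replicate 4 it was -0.22.

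TARS2 (ENSG00000143374; chromosome 1, 150487414 to 150507602, plus strand), the mitochondrial threonyl enzyme, was the 1 tested member whose groups did not overlap at all, a pattern that 5.40% of all tested genes showed. It stood at 11.6, 16.05, 12.6 and 10.7 CPM in siControl and at 9.63, 10.2, 9.33 and 10.3 CPM in siNAT10. The highest siNAT10 value, 10.3 CPM, lay close under the lowest siControl value, 10.7 CPM, and siControl replicate 2 stood above the rest of its group. TARS2 was not called (log2 fold change -0.37, SE 0.14, edgeR adjusted p 0.21), and without siControl replicate 2 its log2 fold change was -0.24. The cytosolic threonyl enzyme TARS1 had 143.3 ± 4.04 CPM in siControl and 134.9 ± 8.61 CPM in siNAT10 (SD, n = 4), a log2 fold change of -0.087.

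Some members kept their direction library by library in both batches. Every siNAT10 library lay beyond both siControl libraries of its batch, in the same direction in both, for 5 of 33 members, where the share over all tested genes was 14.7%, close to that of the members. QARS1, TARS2, LARS1 and AIMP2 were lower in this way and RARS2, the mitochondrial arginyl enzyme, was higher.

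SARS1 and LARS1, the enzymes whose tRNAs NAT10 acetylates, were close between groups. SARS1 (ENSG00000031698; chromosome 1, 109213918 to 109238182, plus strand) stood at 49.1, 41.0, 56.4 and 49.0 CPM in siControl and at 43.7, 40.1, 45.6 and 48.0 CPM in siNAT10. Its groups overlapped, and the log2 fold change was -0.14 with a 95% interval from -0.36 to 0.077. LARS1 (ENSG00000133706; chromosome 5, 146110566 to 146182696, minus strand) stood at 65.0, 67.0, 60.4 and 60.8 CPM in siControl and at 63.6, 54.7, 55.4 and 59.9 CPM in siNAT10. These values overlapped across batches but not within them, with a log2 fold change of -0.12 and an interval from -0.32 to 0.088. Neither gene was called (edgeR adjusted p 0.555 for SARS1 and 0.62 for LARS1). For leucine the mitochondrial gene LARS2 was fitted on the other side of 0, at 0.15 with an interval from -0.055 to 0.36, and the mitochondrial seryl gene SARS2 had no counts.

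The scaffolds AIMP1 and AIMP2 hold the multisynthetase complex together. AIMP1 (ENSG00000164022; chromosome 4, 106315544 to 106349456, plus strand) stood at 51.9, 41.9, 45.7 and 41.4 CPM in siControl and at 52.6, 53.4, 46.4 and 38.2 CPM in siNAT10, with overlapping groups and a log2 fold change of 0.068. AIMP2 (ENSG00000106305; chromosome 7, 6009255 to 6023834, plus strand) stood at 89.6, 85.7, 147.0 and 134.6 CPM in siControl and at 78.7, 79.4, 134.0 and 111.9 CPM in siNAT10. The spread of AIMP2 followed the batches, with replicates 3 and 4 of both groups high. With batch in the model it was not called for the siRNA (log2 fold change -0.17, SE 0.097, edgeR adjusted p 0.42). EIF2AK1 lies over the 3' end of AIMP2 on the other strand, and because no source says how strand was treated in counting, the AIMP2 count is uncertain.

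**Figure D3:**
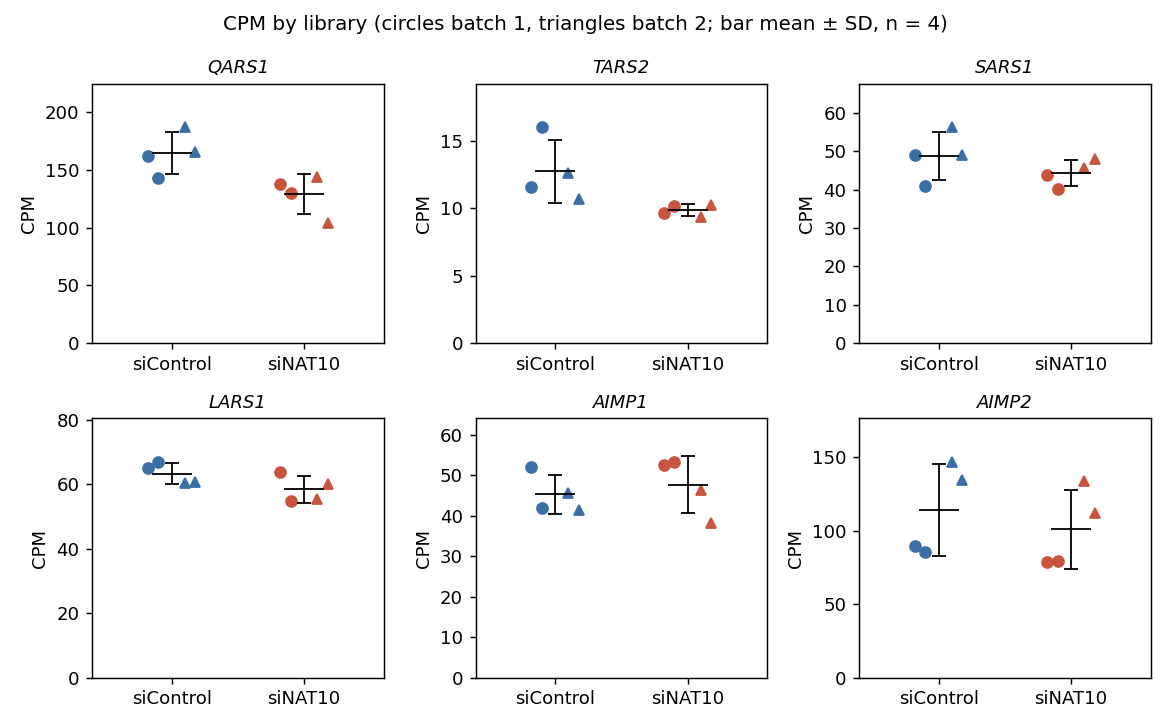
CPM of QARS1, TARS2, SARS1, LARS1, AIMP1 and AIMP2 in each library, with circles for batch 1, triangles for batch 2 and a bar for the mean ± SD of 4 libraries. The siNAT10 points of TARS2 sit between 9.33 and 10.3 CPM, below each siControl point, while AIMP2 separates by batch in both groups.

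The listed genes of the multisynthetase complex, 6 tested cytosolic synthetases and the scaffolds AIMP1 and AIMP2, were set beside the free cytosolic enzymes as a description. This set is not the whole complex. It leaves out the third scaffold EEF1E1, fitted at a log2 fold change of 0.14, and the list holds no aspartyl enzyme. Of the 8 tested genes of the set, 6 had a fitted value below 0 and the median log2 fold change was -0.12. Of 11 tested cytosolic enzymes outside it, 5 were below 0 and the median was 0.00037. The median over all tested genes was -0.0024. The summed CPM of the listed complex genes was 768, 710, 906 and 849 in siControl and 694, 700, 800 and 701 in siNAT10. Each siNAT10 sum was below both siControl sums of its batch, while across batches the groups overlapped. QARS1 held 164.6 and 129.2 CPM of the mean sums. The other complex members with the most transcripts were KARS1, the lysyl enzyme, at 157.9 ± 8.37 and 144.2 ± 12.1 CPM, and MARS1, the methionyl enzyme, at 119.2 ± 34.3 and 98.6 ± 20.6 CPM. MARS1 meets the stress gene DDIT3 tail to tail, and its last 500 bases are overlapped by DDIT3 on the other strand, so its count is uncertain. EPRS1, which carries the glutamyl and prolyl enzymes on a single chain, and RARS1, the arginyl enzyme, had log2 fold changes of -0.074 and 0.039.

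Fitted values of the free cytosolic enzymes ran from -0.14 (SARS1) to 0.12 (FARSA). FARSA and FARSB, the alpha and beta subunits of phenylalanyl-tRNA synthetase, had log2 fold changes of 0.12 and 0.053. FARSA was the most abundant tested cytosolic member and stood at 151.8, 170.3, 187.4 and 160.3 CPM in siControl and at 175.6, 176.9, 163.4 and 213.0 CPM in siNAT10. These groups overlapped, and FARSA had more than 2 times the transcripts of FARSB (174.8 against 67.3 CPM over 8 libraries). CARS1, the cysteinyl enzyme, was the least abundant tested cytosolic member, at 5.45, 6.04, 4.26 and 8.31 CPM in siControl and at 4.71, 4.28, 5.49 and 8.60 CPM in siNAT10. It was high in replicate 4 of both groups, and its interval was wide, from -0.57 to 0.37. WARS1, the tryptophanyl enzyme and a gene that interferon induces, had 35.4 ± 1.61 and 35.4 ± 2.23 CPM (SD, n = 4), a log2 fold change of 0.00037. NARS1, AARS1 and HARS1, the asparaginyl, alanyl and histidyl enzymes, were fitted at 0.11, 0.082 and 0.050, and YARS1 and GARS1, the tyrosyl and glycyl enzymes, at -0.090 and -0.14.

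Many cytosolic synthetase genes are targets of ATF4, the transcription factor of the amino acid response, which pairs with C/EBP proteins on elements that resemble TGATGNAA. The 12 synthetases listed as ATF4 targets are cytosolic genes, and 11 were tested. Promoter stretches are shown for the listed genes that hold such an element. RefSeq promoters (GRCh38.p14, 250 bases before to 50 after each start site) matched 32 of the 37 members. In them, TGATGNAA on either strand was found in 7 of the 10 listed genes with a sequence, in 1 of 22 other members (YARS2) and in 1217 of 27305 genes overall (4.46%). The list was written from general knowledge that may rest on such elements, so the count is a description. A match is not evidence of binding. The 30-base windows are given 5' to 3' on the gene's strand, with the match in capitals; a match on the other strand reads TTNCATCA.
AARS1 (chr16:70289675-70289704, minus): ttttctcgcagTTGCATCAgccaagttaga
CARS1 (chr11:3057407-3057436, minus): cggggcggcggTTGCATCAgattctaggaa
GARS1 (chr7:30594834-30594863, plus): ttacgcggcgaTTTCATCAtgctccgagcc
IARS1 (chr9:92293692-92293721, minus): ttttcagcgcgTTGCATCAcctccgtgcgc
MARS1 (chr12:57488053-57488082, plus): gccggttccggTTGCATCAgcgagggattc
NARS1 (chr18:57621804-57621833, minus): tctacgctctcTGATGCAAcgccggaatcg
TARS1 (chr5:33440956-33440985, plus): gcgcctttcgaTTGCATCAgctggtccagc
In these windows 6 of the 7 matches have C at the open position of the element (TTGCATCA or its complement TGATGCAA) and GARS1 has TTTCATCA. The first base of the match lies from 33 bases before to 15 after the start site in 6 genes, and 187 bases before it in AARS1.

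Transcripts of the ATF4-listed synthetases differed little between the siRNAs. Of the 11 tested, 8 had a fitted value below 0, 0 were called in edgeR, 0 had an unadjusted p under 0.05, and the median log2 fold change was -0.090. Of the 6 tested cytosolic synthetases not listed, 4 were above 0 and the median was 0.045. The carriers of the element shown above were fitted from -0.25 (MARS1) to 0.11 (NARS1), with IARS1 unmeasured. MARS1 was at -0.076 without siControl replicate 3, at -0.091 without siNAT10 replicate 4 and at -0.064 in batch 1 alone. ATF4 itself stood at 787.7 ± 331 CPM in siControl and 657.9 ± 113 CPM in siNAT10 (SD, n = 4; log2 fold change -0.24, edgeR adjusted p 0.63). Of 30 other ATF4 targets 26 were tested and 0 were called by edgeR, with 13 above 0, 13 below and 5 at an unadjusted p under 0.05 (19.2%, against 15.7% of all tested genes, of which 2.28% were called). The 2 with the smallest p were the cystine carrier SLC7A11 (log2 fold change 0.39, edgeR adjusted p 0.14) and SLC3A2, the heavy chain of amino acid exchangers (0.27, edgeR adjusted p 0.20).

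The mitochondrial synthetases charge the tRNAs of the mitochondrial genome. Of 16, 14 were tested, 8 had a fitted value above 0 and 6 below, and the median log2 fold change was 0.022, with medians of 0.10 in batch 1 alone and 0.041 in batch 2 alone. IARS2, the isoleucyl enzyme, was the most abundant member of either list. It stood at 188.0, 231.6, 223.7 and 199.7 CPM in siControl and at 245.5, 225.1, 241.7 and 191.9 CPM in siNAT10, overlapping groups with a log2 fold change of 0.10 and an interval from -0.13 to 0.33. PARS2, the prolyl enzyme, was the least abundant tested member, at 6.69, 6.10, 5.76 and 5.35 CPM in siControl and at 7.88, 6.08, 4.55 and 3.72 CPM in siNAT10. In batch 1, siNAT10 replicate 1 was above both siControl libraries and replicate 2 was below both, close under siControl replicate 2. Both siNAT10 libraries of batch 2 were below siControl. The log2 fold changes of PARS2 were 0.11 in batch 1 alone and -0.42 in batch 2 alone. The interaction of batch and siRNA was not called for it (edgeR unadjusted p 0.15). NARS2, the asparaginyl enzyme, had the highest fitted value of the members, at 8.36 ± 1.46 CPM in siControl and 9.85 ± 1.70 CPM in siNAT10 (SD, n = 4; log2 fold change 0.24, edgeR adjusted p 0.54). YARS2, RARS2 and EARS2, for tyrosine, arginine and glutamate, were fitted at 0.14, 0.12 and 0.11. WARS2, MARS2 and AARS2, for tryptophan, methionine and alanine, were fitted at -0.14, -0.14 and -0.079. CARS2, HARS2 and FARS2, for cysteine, histidine and phenylalanine, lay between -0.041 and 0.027.

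Sums over each list were compared within batches. The cytosolic synthetases summed to 1438 ± 93.4 CPM in siControl and 1373 ± 55.4 CPM in siNAT10 (SD, n = 4), with groups that overlapped in batch 1 and siNAT10 below siControl in batch 2. The mitochondrial synthetases summed to 483.3 ± 22.8 and 504.7 ± 27.2 CPM, with siNAT10 above siControl in batch 1 and groups that overlapped in batch 2. Because the kit counts each transcript once at its 3' end, CPM does not grow with transcript length and genes can be set side by side, although priming may differ between genes. For 14 pairs of a cytosolic and a mitochondrial gene of the same amino acid, in which EPRS1 and FARS2 each occur more than once, the cytosolic gene had more transcripts in 8 of 8 libraries in 13 pairs. The ratio of mean CPM ran from 1.17 for HARS1 over HARS2 to 15.96 for MARS1 over MARS2. Cysteine was the exception: CARS2 had 8.93 times the CPM of CARS1 (52.6 against 5.89 CPM over 8 libraries) and was the higher of the pair in 8 of 8 libraries. The CARS1 count is uncertain. Of 8 protein-coding genes within 250 kb of it, 6 had at most 10 counts over the 8 libraries, and it has named pseudogene copies (CARS1P1 and CARS1P2). The counts at both ends of the range of ratios are uncertain as well. WDR55 and DDIT3 lie over the 3' ends of HARS1 and MARS1 on the other strand, and ZMAT2 over that of HARS2 on the same strand. Whether any of these ratios reflects transcript levels was not tested. The genes of a pair were fitted on opposite sides of 0 in siNAT10 against siControl in 8 of 14 pairs.

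**Figure D4:**
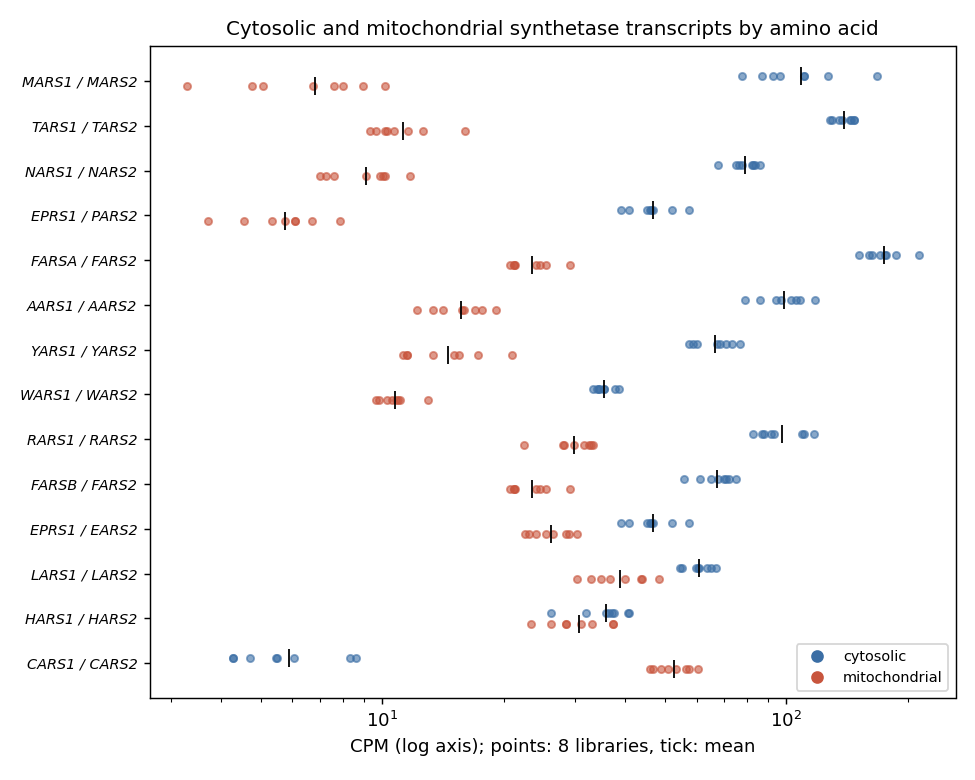
CPM (log axis) of the cytosolic (blue) and mitochondrial (red) synthetase gene of each amino acid in 8 libraries, with a tick at the mean, ordered by the ratio of the means. Blue lies to the right of red except in the cysteine pair at the bottom, and the histidine pair overlaps most.

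More members were called between the batches than between the siRNAs. In the batch term of the same fit, 5 of 33 members were called, 4 higher and 1 lower in batch 2, where 25.3% of all tested genes were called (13.0% higher and 12.2% lower). The median size of the batch log2 fold change was 0.16 over members and 0.26 over all tested genes, and 21 of 33 members had a larger batch than siRNA value in size. What differed between the batches is not given in the labels. AIMP2 was higher in batch 2, at 83.3 ± 5.19 CPM in batch 1 and 131.9 ± 14.6 CPM in batch 2 (SD, n = 4; log2 fold change 0.66, SE 0.097, edgeR adjusted p 0.00016). MARS2, the mitochondrial methionyl enzyme, had 4.96 ± 1.41 and 8.68 ± 1.15 CPM in batches 1 and 2 (log2 fold change 0.80, edgeR adjusted p 0.0071). YARS2 had 11.9 ± 0.98 and 17.2 ± 2.72 CPM (log2 fold change 0.53, edgeR adjusted p 0.0078). LARS2 was lower in batch 2, with 39.9, 44.1, 43.8 and 48.4 CPM in batch 1 and 32.9, 30.4, 36.5 and 34.9 CPM in batch 2 (log2 fold change -0.39, edgeR adjusted p 0.0094). For these 4 genes no library of a batch reached the range of the other. AARS1 was called at the edge (log2 fold change 0.29, edgeR adjusted p 0.045), and its call was lost in 7 of 14 alternatives, among them the fits without siControl replicate 2 (adjusted p 0.14) or 4 (0.11) and without siNAT10 replicate 1 (0.13), 2 (0.065) or 3 (0.12). Batches did not overlap for 8 of 33 members, against 22.7% of all tested genes. Of 17 cytosolic members 14 were fitted above 0 and 1 was called (AARS1), of 14 mitochondrial members 7 were above 0 and 3 were called, and of all 13840 tested genes 6918 were above 0. A difference between the lists was not tested.

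**Figure D5:**
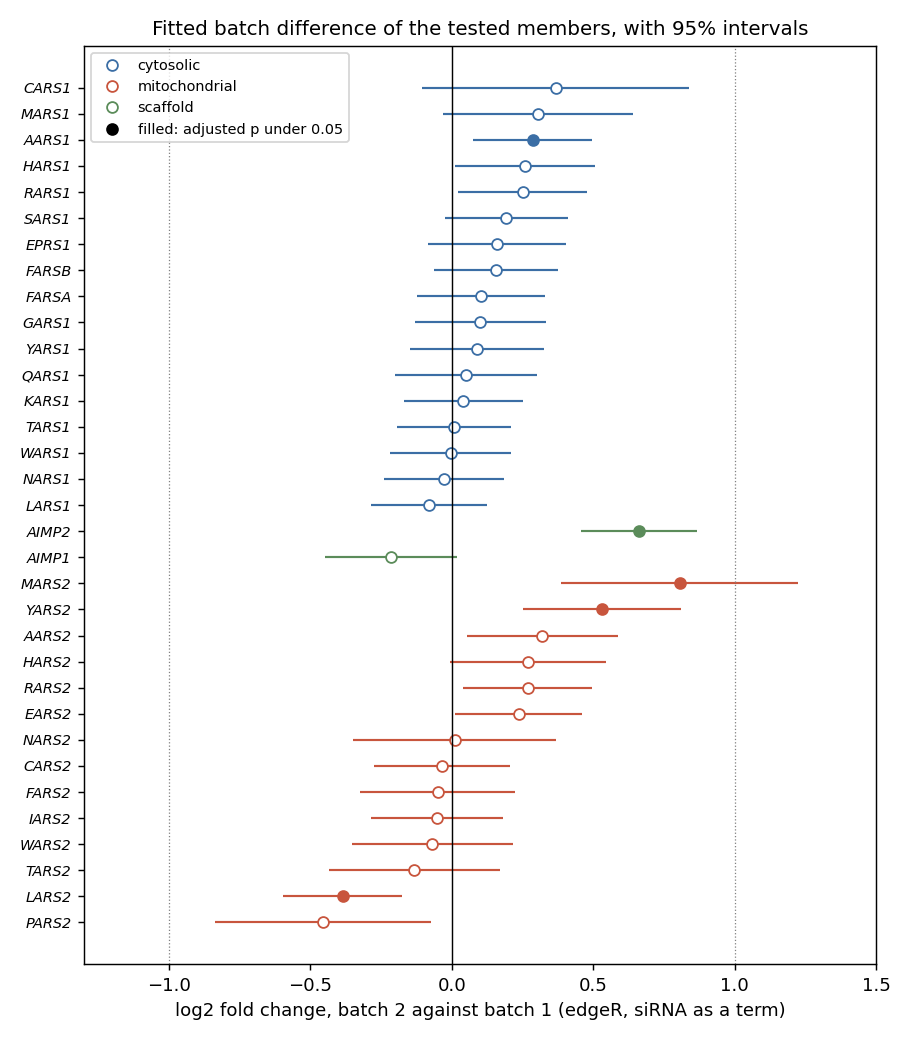
Fitted log2 fold change of each of 33 tested members, batch 2 against batch 1, with its 95% interval (bars) and siRNA as a term. Filled points passed an adjusted p of 0.05: AIMP2, MARS2, YARS2 and AARS1 to the right of 0 and LARS2 to the left.

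The siRNA effect on members was then compared between batches. In edgeR 0 of 33 members had a called interaction of batch and siRNA, where 0% of all tested genes did, and DESeq2 called 0 members. At an unadjusted p under 0.05 there were 0 members, against 3.04% of all tested genes. Fitted in each batch alone, 23 of 33 members had the same sign in both batches. The share over all tested genes was not computed, so this count is a description only.

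Proteins that work beside the synthetases were read from further lists. Of 17 charging partners 16 were tested and 0 were called by edgeR, with 8 above 0, 8 below, 4 at an unadjusted p under 0.05 (25%) and a median of 0.0096. Over all tested genes 2.28% were called and 15.7% had an unadjusted p under 0.05. THUMPD1, the adaptor through which NAT10 acetylates tRNA, stood at 32.97, 33.2, 35.7 and 42.9 CPM in siControl and at 38.0, 41.5, 40.1 and 50.4 CPM in siNAT10 (log2 fold change 0.23, edgeR adjusted p 0.31). Its siNAT10 libraries were above siControl in batch 1, and in batch 2 replicate 3 lay between the siControl libraries. GATC had the smallest p of this list, at 32.4 ± 4.66 CPM in siControl and 25.1 ± 5.02 CPM in siNAT10 (SD, n = 4; log2 fold change -0.38, edgeR adjusted p 0.079). It is a subunit of the amidotransferase that turns glutamate on mitochondrial tRNA into glutamine, a route that replaces a mitochondrial glutaminyl enzyme and starts from the product of EARS2. The other subunits were fitted at 0.22 (GATB) and -0.22 (QRSL1), and neither was called (edgeR adjusted p 0.41 and 0.56). PTRHD1 came next (-0.25, edgeR adjusted p 0.24). EEF1E1, the third scaffold protein of the multisynthetase complex, had 68.5 ± 6.62 and 75.7 ± 4.25 CPM, a log2 fold change of 0.14. Of 28 tRNA processing and export genes 26 were tested and 0 were called by edgeR, with 10 above 0, 16 below and 4 at an unadjusted p under 0.05 (15.4%, against 15.7% of all tested genes). The 2 with the smallest p were RPP25, a low-count subunit of RNase P at 0.90 ± 0.21 and 0.30 ± 0.072 CPM (SD, n = 4; edgeR adjusted p 0.055), and ELAC1, an RNase Z (log2 fold change -0.71, edgeR adjusted p 0.082).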

How the data were processed

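The authors deposited whole-number counts per Ensembl gene for 8 libraries. Per the series' design text in the labels, reads were aligned to GRCh38 with STAR (2.7.9a) and counted with featureCounts, and the submitters' processing notes also name Trim Galore 0.6.10, cutadapt 3.5 and Subread. How strand and multiply mapped reads were handled, and which annotation release was used, are not given in the sources used here, and the kit orientation is stated both as forward and as reverse. Each column was matched through the sample descriptions. Symbols and coordinates came from GENCODE 44 (GRCh38), which matched 61458 of 86369 rows; rows without a match held 1.27% to 1.65% of each library and were kept for testing. Another gene lies over the last 500 bases of 3 members on the same strand and of 4 on the other, and 12 members have a named pseudogene copy, so their counts are uncertain.

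Genes were kept by filterByExpr (minimum count 10), scaled by TMM and tested in edgeR 4.0.16 (R 4.3.3) by glmQLFit and glmQLFTest with batch and siRNA as additive terms and Benjamini-Hochberg adjustment over 13840 genes. Standard errors were taken from the F statistic, and 95% intervals from the t distribution with the fit's degrees of freedom. CPM used TMM-scaled library sizes. The fit was tested on simulated data. Replicates of a group and batch differed by more than counting noise (chi-square per degree of freedom 15.8 to 26.9). Same-numbered libraries of the groups deviated together from their group means (correlations 0.39, 0.38, 0.45 and 0.36 across genes). Such libraries share a batch and batch was not removed, so these correlations cannot show pairing. The best match of siNAT10 replicate 2 was siControl replicate 1. A replicate block was tried as an alternative. Other alternatives were no batch term, DESeq2 1.42.0, RLE or library-size scaling, other low-count filters, each batch alone, each library left out and thinning to the smallest library. The members, lists and tests were chosen with earlier results of these data known. The rule for values in every library named members with an adjusted p, then an unadjusted p, under 0.05, SARS1, LARS1, the scaffolds, and the most and least abundant tested gene of each list. From the other lists, called genes or else the 2 with the smallest p, and THUMPD1, were named. Other members were named in the account of their list. The labels name no molecular identifiers, so depth statements cover counting error only.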

Additional observations from a re-analysis of the deposited data

Results flagged for a closer look

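In each siRNA group of 4 libraries, every tested member was examined for a library standing apart, separated from the nearest other library by over 0.829 of the whole range. Of 66 groups 3 showed such a gap, and chance gives about 3.3 (1 in 20) if the 4 values come from 1 normal distribution. Each group spans 2 batches, so that number does not strictly apply here. EPRS1 stood at 52.2 CPM in siControl replicate 4, against 46.1 to 46.9 CPM in the other siControl libraries. RARS1 stood at 116.9 CPM in the same library, against 87.3 to 91.5 CPM. GARS1 stood at 39.4 CPM in siControl replicate 2, against 47.5 to 49.0 CPM.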

How the results depend on the processing

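In each of 18 alternatives 0 members were called between siNAT10 and siControl, and in each of 14 alternatives 0 members had a called interaction; the replicate block also gave 0, while the count over all genes went from 315 to 454. Members called between batches numbered 4 to 7. NAT10 kept its call except in batch 2 alone (log2 fold change -1.58, adjusted p 0.086), and ranged from -1.79 to -1.52 without 1 library. The cytosolic median was -0.010 in batch 2 alone and ranged from -0.091 to -0.042 without 1 library; the mitochondrial median was 0.10 in batch 1 alone and ranged from -0.0080 to 0.097 without 1 library, with 0.097 without siControl replicate 3 and 0.077 without siNAT10 replicate 4. Signs of uncalled log2 fold changes turned in batch 2 alone for AARS2 (0.016), FARS2 (0.046), MARS2 (0.14), CARS1 (0.18), HARS1 (-0.010), HARS2 (-0.14) and AIMP1 (-0.039), in batch 1 alone for PARS2 (0.11), RARS1 (-0.028) and WARS1 (-0.085), after thinning for CARS1 (0.055), MARS2 (0.070) and HARS2 (-0.021), and for WARS1 with the replicate block (-0.00055) or no low-count filter (-0.0060). Without 1 library, ranges that crossed 0 were -0.31 to 0.045 for CARS1, -0.18 to 0.013 for EPRS1, -0.013 to 0.13 for FARSB, -0.047 to 0.14 for HARS1, -0.046 to 0.11 for RARS1, -0.042 to 0.038 for WARS1, -0.061 to 0.091 for CARS2, -0.12 to 0.088 for FARS2, -0.059 to 0.15 for HARS2, -0.27 to 0.016 for MARS2 and -0.0091 to 0.14 for AIMP1. The cause of these shifts was not tested. Over all genes, calls numbered 15 without the batch term, 567 in DESeq2, 595 without a low-count filter, 173 in batch 1 alone, 0 in batch 2 alone and 75 (without siNAT10 replicate 2) to 286 without 1 library. CARS1, MARS2, PARS2 and NARS2, the tested members under 10 CPM, had the widest intervals.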

Other observations

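HARS1 and HARS2 are neighbours on chromosome 5 in opposite orientation whose annotated 5' ends overlap (HARS1 140673035 to 140691537, HARS2 140691430 to 140699305). Both were fitted higher in batch 2, at 0.26 and 0.27 on the log2 scale, and neither was called (edgeR adjusted p 0.12 and 0.14). WDR55 lies over the 3' end of HARS1 on the other strand and ZMAT2 over that of HARS2 on the same strand, so both counts are uncertain. DDIT3, which overlaps the end of MARS1, had a batch log2 fold change of -1.005 (edgeR adjusted p 4.8e-05), where MARS1 had 0.30 (edgeR adjusted p 0.175).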
